A study of Mus musculus with 2 samples.

Results

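The genes described here encode the extracellular matrix of the newborn mouse cortex: the collagens, the laminins and 12 further matrix genes. The rule that picks them uses gene symbols and no signal, and draws on the probe sets that the platform annotation gives to exactly 1 gene. The rule found 64 genes read by 134 probe sets, out of 18193 genes and 34945 such probe sets on the array. They fell into 11 fibrillar collagens, 24 basement membrane genes, 5 brain matrix genes, the pair Fn1 and Sparc, and 22 other collagens. The class of each gene follows its protein's known place in the matrix.

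The study compared cerebral cortex from 2 groups of mice on Affymetrix arrays, with RNA of 3 animals pooled on 1 array per group. The control pool was labelled MRTFA-/-;MRTF-BFlox/Flox, and the double knockout pool MRTF-A-/-;MRTF-BF/F;GFAP-Cre. Both pools are therefore labelled null for Mrtfa and floxed for Mrtfb, and only the double knockout pool carried Cre recombinase, from a transgene named for the promoter of the astrocyte filament gene Gfap. Tissue was taken at postnatal day 0, although the description of the double knockout sample gives postnatal day 1. Both MRTFs help the transcription factor SRF and enter the nucleus when actin monomers are used up. The comparison asks what loss of Mrtfb adds where Mrtfa is already disrupted. With 1 array per group the differences have no replicate check, no test was possible and no p-value is given, and pooling hides how the animals of a group differed.

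Mrtfb, the floxed gene, read 3358.9 in the control pool and 2481.8 in the double knockout pool, 1.36-fold lower. Its dimmer probe set at or above the floor was lower as well, with a log2 difference of -0.22. Mrtfa read 601.6 and 262.4, 2.30-fold lower, although the labels give both pools as null, and Srf read 582.3 and 471.1, 1.24-fold lower. Where these probe sets sit relative to the deleted exons of Mrtfb or Mrtfa is unknown here, and one outside the deletion checks nothing. The labelled tissue was checked by its markers, and the 9 measured cortical neuron genes read at least 346.9 on both arrays, among them Tbr1 (1553.3 and 1720.3), Bcl11b (2441.1 and 2773.9) and Emx1 (346.9 and 391.7), and their median difference was 0.053. The vesicular glutamate transporter gene Slc17a7 was the member of that list with the largest difference, at -0.55. Of the striatal markers 10 of 13 were measured too, and 4 of 10 of the choroid plexus. Among them were Penk (2928 and 2234.1) and Ttr (12405.5 and 12739.7). The markers therefore do not show that the tissue was cortex alone.

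Basement membranes are thin sheets on which epithelia, vessels and, in the brain, the outer surface beneath the meninges rest. Laminin trimers and type IV collagen form separate networks there, nidogens and the heparan sulfate proteoglycan perlecan link them, and dystroglycan and integrins hold cells to them. In the developing cortex the end feet of radial glia attach to this sheet, and gaps in it let neurons migrate out into the meninges. Fibrillar collagens, by contrast, are made mostly by fibroblasts of the meninges and vessel walls, while the matrix between neurons is built from hyaluronan, the lecticans neurocan, brevican and versican, and the tenascins.

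Few matrix genes differed between the pools, and they did so in both directions. Of the 64 genes, 48 reached a floor of 178.9 signal units on at least 1 array and 45 on both, and 16 stayed under it. The floor is the middle value of all signals, and signals below it were set to it. A gene's difference is the log2 signal of the double knockout pool minus that of the control pool, read from its brightest probe set. On that scale 30 matrix genes were higher and 18 lower, which is 62.5% higher, against 52.9% of all measured genes. Their median was 0.051 against 0.011 over all 11634 measured genes. The laminin chain gene Lama2 and the nidogen gene Nid1 were more than 0.32 log2 higher, and the perlecan gene Hspg2 and the collagen gene Col23a1 more than 0.32 log2 lower. That is 2 of 48 in each direction, or 4.17%, where 3.44% of all measured genes were higher and 5.54% lower by the same margin. That split of the background was 497 higher and 517 lower, in place of 400 and 645, after quantile normalization. The share of matrix genes past this margin was near the background at this setting. It was not near it upward in 2 others. With the mean over probe sets 8.33% of the matrix genes were past it higher, against 2.57% of all genes, and without the probe sets whose suffix (_a, _s or _x) marks shared or cross-matching probes 11.6%, against 3.75%. The genes added in the latter were Lamb1, Col1a2 and Col19a1, each read there from another probe set. None of the matrix genes passed a difference of 1.5-fold, which 0.37% of all genes did upward and 0.774% downward. With the floor added to both signals as a pseudocount, Col23a1 was past 0.32 log2, and Lama2, Nid1 and Hspg2 were not. The SD of the differences was 0.19 both among the matrix genes and among all genes measured. In bulk tissue such as this, fewer cells of a type and less RNA per cell cannot be told apart.

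**Figure D1:**
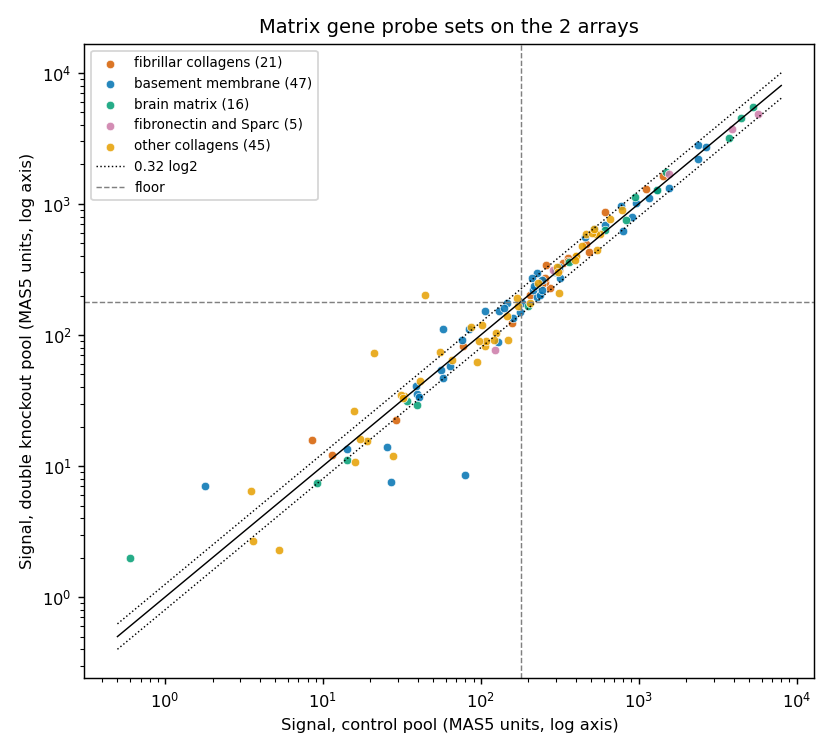
Signals of the 134 matrix probe sets in the control pool (horizontal, log axis) and the double knockout pool (vertical, log axis), in MAS5 signal units and coloured by class. The dashed lines mark the floor of 178.9, above which the points lie close to the line of equal signal, mostly within the dotted lines at 0.32 log2. Below it the points scatter widely.

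How far the probe sets of a gene agreed sets the precision of these values. A pair of probe sets or more reached the floor on both arrays for 22 matrix genes. Their pooled SD between probe sets of a gene was 0.19 log2, against 0.18 over the 4858 such genes of the whole array. All probe sets went the same way in 12 of the 22, or 54.5%, against 43.1% of all such genes. Of the 48 measured matrix genes 30 had differences no larger than this spread and 18 larger ones. The same count was not made over all genes, whose differences had an SD of 0.19 like those of the matrix genes. Without that count the 18 have no background share beside them, and they are not read as a result about the matrix genes. Counted by probe set, 6 of the 71 that reached the floor on both arrays were past the 0.32 margin upward and 2 downward. The upper share was 8.45%, where 3.37% of all such probe sets were that much higher, and the lower share 2.82%, where 6.06% were that much lower. The higher probe sets belong to Lama2, Nid1, Lamb1, Col1a2, Col5a2 and Col19a1, and in the last 4 of these the brightest probe set was below the margin. The spread covers probe sets only, which may read different transcripts, and no variation between animals.

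Laminin chains had small differences, the largest being Lama2 and Lamb1, both higher in the double knockout pool. A laminin is a cross-shaped trimer of 1 alpha, 1 beta and 1 gamma chain. Of 10 chains on the array 7 were measured, with 5 higher and 2 lower and a median of 0.048. That is 71.4% higher, against 52.9% of all measured genes, and 3 of the 5 (Lama4, Lama5 and Lamc1) lay within the probe set spread. The counts were 7 and 1 after quantile normalization and 6 and 2 with loess centring, each of which brought Lamb2 above the floor. Lama2, the alpha chain of the laminin of muscle and of vascular and pial basement membranes, read 226.1 in the control pool and 295 in the double knockout pool. The double knockout pool was 1.30-fold higher, a log2 difference of 0.38 that rests on a single probe set not far above the floor. It was 0.22 with the pseudocount.

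Lamb1, the beta chain found in most laminins of the embryo, read 459.7 in the control pool and 557.1 in the double knockout pool. It was higher on both of its probe sets above the floor, with a mean of 0.32 ± 0.07 (SD, 2 probe sets). Its dimmer probe set read 210 and 272.5. Lamc1, the gamma chain shared by most laminins, read 611.8 and 688.3, a log2 difference of 0.17. The chains that can join in the trimer of alpha 2, beta 1 and gamma 1 were each higher in the double knockout pool. That is not particular to this trimer, since the alpha chains Lama4 (0.030) and Lama5 (0.048) were higher too. Lamc1 lay within the probe set spread, and Lama2 rests on 1 probe set not far above the floor.

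The other alpha chains showed little. Lama4, the alpha chain of endothelial basement membranes, read 296.3 in the control pool and 303.4 in the double knockout pool, and Lama5, found in epithelial and mature vascular membranes, read 213.5 and 221.3. Their log2 differences were 0.030 and 0.048. Lama1, the alpha chain of the early pial basement membrane, stayed under the floor at 57.7 and 111.1, so no fold is given. Lamc3, a gamma chain present at the pial surface, was lower, at 243.9 in the control pool and 218.5 in the double knockout pool, a difference of -0.16. Lama3, an epithelial chain, crossed the floor on the control array only, at 183.3 against 174.2. Lamb2 at 145.6 and 175.8 and Lamb3 at 127.7 and 88.7 did not reach it.

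Both nidogens, which bridge laminin and type IV collagen, were higher in the double knockout pool. Nid1 read 767.7 in the control pool and 968.5 in the double knockout pool. This is 1.26-fold, or 0.33 log2, on the only one of its 3 probe sets to reach the floor. Nid2 read 216.2 and 235.7, a difference of 0.12.

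Type IV collagen forms the other network of the sheet. Of its 6 chains 4 were measured, with 1 higher and 3 lower and a median of -0.075, and that split was the same under the 3 other scalings tried. Col4a1 and Col4a2 encode the chains of nearly every basement membrane. Col4a1 read 2378.7 in the control pool and 2194.4 in the double knockout pool, and both of its probe sets were lower, with a mean of -0.15 ± 0.05 (SD, 2 probe sets). Col4a2 read 1302.7 and 1279.3, a difference of -0.030. The minor chains went apart. Col4a5 read 518.7 in the control pool and 638.9 in the double knockout pool, a difference of 0.30, with a mean of 0.17 ± 0.18 (SD, 2 probe sets). Col4a6 read 228.3 and 195, a difference of -0.23 on 1 probe set. All 5 probe sets of Col4a3 and Col4a4, chains of the kidney glomerulus, stayed at or under 159.1.

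Type IV collagen genes sit in pairs that point away from each other on the chromosome. In the RefSeq annotation of build GRCm38.p6, the listed starts of Col4a1, on the minus strand of chromosome 8, and Col4a2, on the plus strand, are 21 bases apart. They lie at 11312826 and 11312805, so these genes overlap at their starts. The listed starts of Col4a6 and Col4a5 on chromosome X are 1343 bases apart, with no overlap. The closely spaced pair had differences of the same sign and the widely spaced pair of opposite sign, which is a description of 2 pairs only. The differences of Col4a1 (-0.12) and Col4a2 (-0.030) were within the probe set spread, and Col4a6 read near the floor. Col4a3 and Col4a4 stayed under the floor and have no difference. A part of the spacing was not tested.

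Perlecan was the only basement membrane gene more than 0.32 log2 lower. Hspg2, which encodes this large heparan sulfate proteoglycan, read 790.5 in the control pool and 626 in the double knockout pool. The double knockout pool was 1.27-fold lower, a difference of -0.34 on the only probe set above the floor. The other probe set read 177.7 and 149.8, just under the floor on both arrays, and was also lower in the double knockout pool. Agrn encodes agrin, a second heparan sulfate proteoglycan of the sheet that clusters receptors at the neuromuscular junction. It read 2367.4 and 2830, a difference of 0.25 in the direction opposite to Hspg2.

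Dag1 encodes dystroglycan, the receptor through which cells bind laminin, perlecan and agrin. Its brightest probe set read 2653.7 in the control pool and 2694.5 in the double knockout pool. Its 4 probe sets went both ways, from -0.25 to 0.063, with a mean of -0.06 ± 0.14 (SD, 4 probe sets), so Dag1 did not differ beyond the spread of its probe sets. The direction of the brightest one turned with quantile normalization or loess centring.

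The remaining collagens of this class differed little. Col15a1 and Col18a1 encode collagens that carry sugar chains and end in fragments known to restrain vessel growth. Col15a1 read 245.1 in the control pool and 264.5 in the double knockout pool, a difference of 0.11. The brightest probe set of Col18a1 read 313.8 and 330.1, and its probe sets disagreed, at 0.069 and -0.24. Col7a1, of the anchoring fibrils of skin, read 236.1 and 202.9, a difference of -0.22. Over the whole basement membrane class 12 of 19 measured genes were higher and 7 lower. That is 63.2% higher, against 52.9% of all measured genes. The class had a median of 0.048 and a range from -0.34 to 0.38. Past 0.32 log2 there were 2 higher (Lama2 and Nid1) and 1 lower (Hspg2). That is 10.5% and 5.26%, against 3.44% and 5.54% of all measured genes.

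**Figure D2:**
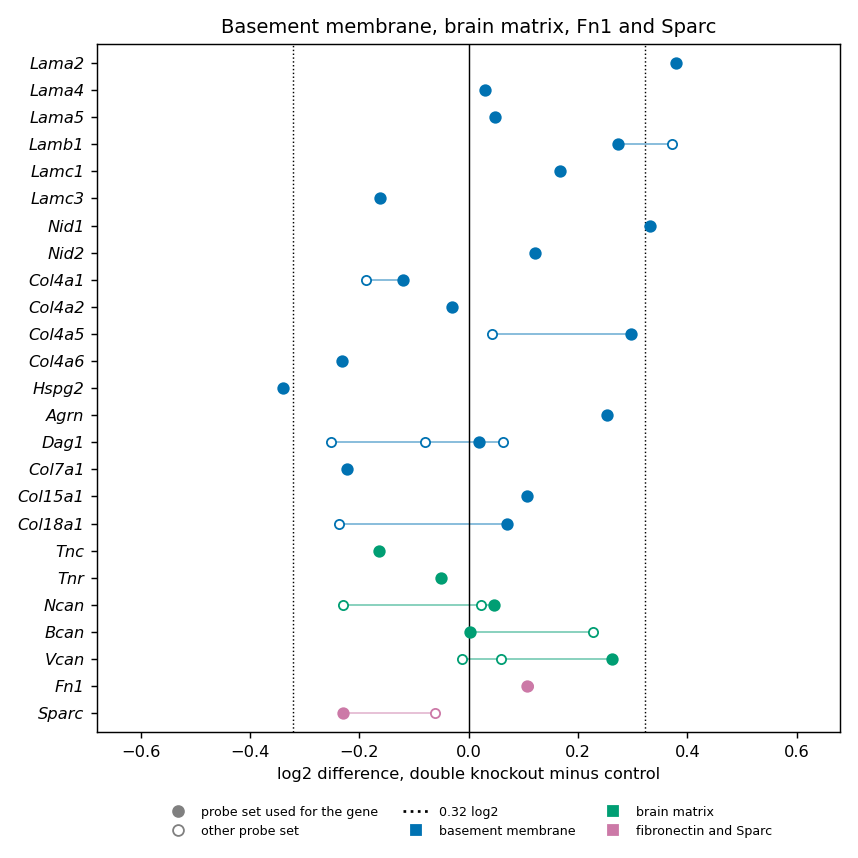
The log2 difference (horizontal, double knockout minus control) of every probe set that reached the floor on both arrays, for the basement membrane and brain matrix genes and for Fn1 and Sparc. Filled points are the probe sets used for the gene, open points the others, and the dotted lines mark 0.32 log2. Lama2, Lamb1, Lamc1, Nid1 and Nid2 lie to the right of 0, Col4a1, Col4a2 and Hspg2 to the left, and Dag1, Ncan and Col18a1 span 0.

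Promoter sequence was examined because SRF, the partner of both MRTFs, binds the CArG box. RefSeq promoter windows of GRCm38.p6, from 250 bases before to 50 after each listed start, were found for 48 of the 64 genes, with 55 windows in all. Both strands were searched, and a site that reads alike on both strands was counted once. A CArG box was found in 2 of the 55 windows, or 3.64%, against 1.63% of all 32851 windows. The 2 genes were Lama2, the laminin chain with the largest difference, and Col6a4. In Lama2 the box lies 39 to 30 bases before the listed start, and within the gene's RefSeq span, which begins further upstream. In Col6a4 it lies 211 to 202 bases before the start. The Col6a4 probe sets stayed under the floor, at 149.2 in the control pool and 91.7 in the double knockout pool and at 121.2 and 91.3. Both sites are shown with 10 bases to either side, 5′ to 3′ on the strand of the gene, and with the CArG box in capitals, at chr10:27616962-27616991 for Lama2 (minus strand) and chr9:106096883-106096912 for Col6a4 (minus strand).
Lama2: aaccaaggacCCTTTAAAGGcccaggcctg
Col6a4: gagccaatgaCCATTTTTGGcgaatggcaa
A match in letters is a description and not a site of binding.

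Promoters of the basement membrane genes that differed in opposite directions are shown for comparison. The stretch of Nid1, which was higher, is the 250 bases before its start (chr13:13437352-13437601, plus strand). The stretch of Hspg2, which was lower, is the 198 bases of its window that lie before the gene's RefSeq span (chr4:137468553-137468750, plus strand). Capitals mark matches to the CCAAT box (CCAAT, or ATTGG on the other strand) and to the GC box (GGGCGG, or CCGCCC on the other strand).
Nid1: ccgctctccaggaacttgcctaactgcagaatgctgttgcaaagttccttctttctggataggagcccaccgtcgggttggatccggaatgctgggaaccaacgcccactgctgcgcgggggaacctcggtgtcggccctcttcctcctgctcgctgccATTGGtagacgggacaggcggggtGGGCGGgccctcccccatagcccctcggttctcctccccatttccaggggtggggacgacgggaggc
Hspg2: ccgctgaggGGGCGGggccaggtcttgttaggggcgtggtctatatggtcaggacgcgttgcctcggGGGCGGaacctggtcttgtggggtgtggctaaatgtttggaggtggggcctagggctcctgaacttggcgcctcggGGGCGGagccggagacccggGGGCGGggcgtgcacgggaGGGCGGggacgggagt
Nid1 held 1 CCAAT box and 1 GC box in 250 bases, and Hspg2 held 5 GC boxes in 198 bases. GC boxes were found both in genes that were higher, such as Agrn, and in genes that were lower, such as Col4a1. A link between these boxes and the direction of a gene was not tested. Over all matrix gene windows a GC box was found in 65.5%, against 35.7% of all windows in the table. The share with a CCAAT box was 34.5% against 37.4%, and with TATAAA on either strand 14.5% against 13.6%. A window without a match lacks only these letters.

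Fibrillar collagens form the cables of connective tissue. Of 11 genes 9 were measured, with 6 higher and 3 lower and a median of 0.053. That is 66.7% higher, against 52.9% of all measured genes. None of the brightest probe sets passed 0.32 log2 in either direction. Types I, III and V, which make up the mixed fibrils of fibroblasts, accounted for 5 of the 6 higher genes. Read from their brightest probe sets, all 5 that were measured were higher under each scaling tried. Their median was 0.11.

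Col1a2, which encodes the second chain of type I collagen, read 1435.9 in the control pool and 1619.3 in the double knockout pool on its brightest probe set. Another read 612.2 and 861.8. Both were higher, at 0.17 and 0.49, with a mean of 0.33 ± 0.23 (SD, 2 probe sets). On the dimmer probe set Col1a2 would be past 0.32 log2, so the size of its difference depends on the probe set read.

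Col3a1, the chain of type III collagen in vessel walls and meninges, read 1106.1 in the control pool and 1296.4 in the double knockout pool, a difference of 0.23. Its dimmer probe set differed by -0.024, and the mean was 0.10 ± 0.18 (SD, 2 probe sets). Col5a2, part of the type V collagen that sets fibril width, differed by 0.025 on its brightest probe set and by 0.42 on a dimmer one that read 257.4 and 344.7. Col1a1 read 358.6 in the control pool and 388.7 in the double knockout pool, a difference of 0.11. Its dimmer probe set, at 256.1 and 253.6, differed by -0.018, and the mean was 0.047 ± 0.092 (SD, 2 probe sets). Col5a1 read 464.5 and 495.5, and its 2 probe sets above the floor were alike, at 0.083 ± 0.009 (mean ± SD, 2 probe sets).

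The fibrillar collagens of cartilage went the other way or stayed low. Col11a2 read 273.4 in the control pool and 228.4 in the double knockout pool, a difference of -0.26 on its only probe set. Col11a1 read 485.3 and 427.4, a difference of -0.19, but its other probe set was higher by 0.092. Col2a1, the main collagen of cartilage, read 11.5 and 12.2, far under the floor, and Col5a3 also stayed under it. Col24a1 and Col27a1 differed by 0.053 and -0.0042, and the latter turned to 0.047 after quantile normalization.

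**Figure D3:**
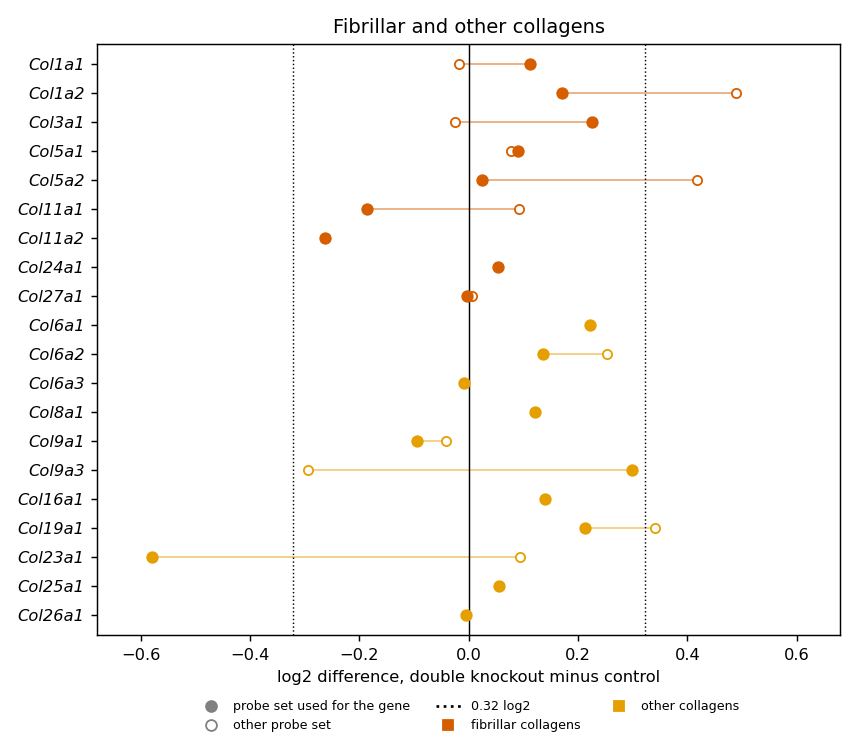
The log2 difference (horizontal, double knockout minus control) of every probe set that reached the floor on both arrays, for the fibrillar collagens and the other collagens. Filled points are the probe sets used for the gene, open points the others, and the dotted lines mark 0.32 log2. Col1a2, Col5a2, Col9a3 and Col23a1 have probe sets far apart, whereas those of Col5a1 and Col6a2 lie close together.

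Of the 22 other collagens 13 were measured and 9 stayed under the floor. Here 8 were higher and 5 lower, which is 61.5% higher, against 52.9% of all measured genes. The median was 0.085, which was -0.0066 with no floor and no filter. Type VI collagen forms beaded filaments around fibroblasts and along vessels. Col6a1 read 656.4 in the control pool and 767.8 in the double knockout pool, a difference of 0.22. Col6a2 read 537.4 and 592.1, and both of its probe sets were higher, with a mean of 0.19 ± 0.08 (SD, 2 probe sets), while Col6a3 read 399.3 and 398.1. The direction of Col6a3, which differed by -0.0081, turned with quantile normalization or loess centring.

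Col23a1, a collagen anchored in the cell membrane, had the largest difference of all matrix genes. Its brightest probe set read 311.6 in the control pool and 209.1 in the double knockout pool, 1.49-fold lower or -0.58 log2. A second probe set read 230.9 and 247.1, slightly higher in the double knockout pool. Averaged, they differed by -0.24 ± 0.48 (SD, 2 probe sets), so the gene did not differ beyond the spread of its probe sets. It was no longer past 0.32 log2 with the mean over probe sets.

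Col9a3, part of the type IX collagen that coats cartilage fibrils, gave probe sets of opposite sign as well. One read 523.1 in the control pool and 645.3 in the double knockout pool and the other 544.2 and 445.1, with a mean of 0.0027 ± 0.42 (SD, 2 probe sets). Col19a1, which is made by some neurons, read 779.5 and 905.9. Both of its probe sets were higher, with a mean of 0.28 ± 0.09 (SD, 2 probe sets). Col16a1, a minor collagen tied to fibrils, read 435.7 in the control pool and 481 in the double knockout pool, a difference of 0.14. Col8a1, of vessel walls, differed by 0.12, Col9a1 by -0.095 and Col26a1 by -0.0052.

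Col25a1, a neuronal membrane collagen, read 567.3 in the control pool and 591 in the double knockout pool. Its other probe set read 44.4 and 202.7, reaching the floor in the double knockout pool alone, where it was at least 1.13-fold higher. Col12a1 read 170.8 and 190.3 and crossed the floor in the double knockout pool only, and Col22a1 read 204.7 and 176.6 and crossed it in the control pool only. The 9 genes under the floor were Col6a4, Col6a5, Col8a2, Col9a2, Col10a1, Col13a1, Col14a1, Col17a1 and Col20a1.

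The 5 brain matrix genes differed little between the pools. All were measured on both arrays, with a median of 0.0021 that fell between -0.051 and 0.046 over the alternatives, and none passed 0.32 log2 under any of them. Ncan encodes neurocan, a lectican of the young brain. Its brightest probe set read 5330.7 in the control pool and 5519 in the double knockout pool, and the mean over its probe sets was -0.05 ± 0.15 (SD, 3 probe sets). Bcan encodes brevican, which becomes abundant as the brain matures. It read 4466.8 and 4485 on the brightest probe set and 1500 and 1761.5 on the other, a mean of 0.12 ± 0.16 (SD, 2 probe sets). Vcan, versican, read 941.4 in the control pool and 1131.5 in the double knockout pool, a difference of 0.26, with a mean of 0.10 ± 0.14 (SD, 3 probe sets). Its other 5 probe sets stayed under the floor, at or below 39.4.

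The tenascins were both slightly lower. Tnc, made by radial glia and astrocytes, read 835.8 in the control pool and 748.2 in the double knockout pool, a difference of -0.16. Tnr, made by oligodendrocytes and some neurons, read 1311.2 and 1268.8, a difference of -0.051. These differences were within the spread between probe sets of a gene, 0.18 over the array.

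Fn1 encodes fibronectin, a matrix glycoprotein that integrins bind. It read 1563.5 in the control pool and 1687.5 in the double knockout pool. Both of its probe sets were higher, by a mean of 0.107 ± 0.001 (SD, 2 probe sets). Sparc encodes a collagen-binding glycoprotein of vessels and glia that is needed for type IV collagen to enter basement membranes. It read 5676.9 in the control pool and 4853.1 in the double knockout pool. Sparc was lower on both probe sets above the floor, with a mean of -0.15 ± 0.12 (SD, 2 probe sets), in the same direction as Col4a1 and Col4a2.

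Genes that make, cut and bind the matrix were taken from 5 lists. Of the collagen processing list, which holds the hydroxylases, chaperones and crosslinking enzymes, 18 of 24 were measured. Of these 7 were higher and 11 lower, the median was -0.023, and 1 gene in each direction passed 0.32 log2. That is 5.56% each way, against 3.44% of all measured genes higher and 5.54% lower. Pcolce, which speeds the trimming of procollagen, read 194.2 in the control pool and 266.4 in the double knockout pool, a difference of 0.45. Its control signal was not far above the floor. No gene of the list was past 0.32 log2 higher with the pseudocount, with a 75th percentile floor or without suffixed probe sets. Serpinh1, the collagen chaperone Hsp47, read 1234.8 and 946, a difference of -0.39, with a mean of -0.24 ± 0.21 (SD, 2 probe sets). Pxdn, the peroxidasin that crosslinks type IV collagen, differed by -0.31, and Plod1, a lysyl hydroxylase, by 0.29.

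Matrix remodelling genes had a median of -0.018 over 15 measured of 21, with 1 gene past 0.32 log2 higher and none lower. The higher share was 6.67%, against 3.44% of all measured genes higher and 5.54% lower. The higher gene was Mmp14, a membrane-bound metalloproteinase that cuts fibrillar collagen. It read 768.8 in the control pool and 994.2 in the double knockout pool and was higher on both probe sets, with a mean of 0.413 ± 0.065 (SD, 2 probe sets). Adamts4, which cuts lecticans, differed by -0.30, Sulf1, which trims heparan sulfate, by 0.30, and the inhibitor Timp3 by -0.24.

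Matrix receptors and the enzymes that put laminin-binding sugars on dystroglycan went both ways. Of 29 genes 20 were measured, with a median of -0.039 and 2 past 0.32 log2 in each direction. That is 10% each way, against 3.44% of all measured genes higher and 5.54% lower. Pomk, a kinase that acts on the sugar of dystroglycan, read 694.4 and 981.8, a difference of 0.50. Its mean was 0.23 ± 0.37 (SD, 2 probe sets). Itga3, a laminin-binding integrin chain of radial glia and migrating neurons, read 500.4 in the control pool and 694.4 in the double knockout pool, a difference of 0.47. Bcam, a receptor for Lama5, read 296.2 and 226.7, a difference of -0.39, and Itga7, a laminin receptor of muscle, differed by -0.37. Neither was past 0.32 log2 after quantile normalization or with the pseudocount, and 1 gene of the list was past it lower with loess centring.

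Partners of the brain matrix, namely the link proteins, hyaluronan synthases and chondroitin sulfate enzymes, had a median of -0.0097 over 14 measured of 21. None passed 0.32 log2. The largest differences were 0.29 for the hyaluronan synthase Has3, -0.20 for the proteoglycan Cspg4, -0.16 for the link protein Hapln3 and -0.13 for the sulfotransferase Chst11. The direction of Cspg4 rests on 1 probe set, since the mean over its probe sets was 0.0071 ± 0.29 (SD, 2 probe sets).

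Other matrix glycoproteins and small proteoglycans had a median of -0.054 over 25 measured of 33, with 3 past 0.32 log2 higher and 2 lower. That is 12% and 8%, against 3.44% and 5.54% of all measured genes. Thbs2, a thrombospondin, read 275.2 in the control pool and 182.3 in the double knockout pool, 1.51-fold lower. The latter signal was just above the floor of 178.9, and only 1 of its probe sets reached the floor on both arrays. Fmod and Ogn, small proteoglycans that bind fibrillar collagen, differed by 0.53 and 0.51, and vitronectin, Vtn, by 0.35. Their means over probe sets were 0.41 ± 0.30 for Fmod (SD, 3 probe sets), 0.27 ± 0.34 for Ogn and 0.27 ± 0.12 for Vtn (SD, 2 probe sets each). With the mean over all probe sets that reached the floor on at least 1 array, 0 genes of the list were past 0.32 log2 higher. The other lower gene was the fibulin gene Fbln1, at -0.34, named after its value was seen, with a mean of -0.012 ± 0.47 (SD, 2 probe sets). Fmod and Ogn are also among the meningeal markers described next.

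Markers of the cells that make this matrix were not alike in the pools. The marker lists were chosen with earlier results of these data known, so their counts and medians are descriptions and no independent finding. Of 22 genes of meninges and fibroblasts, 17 were measured, 13 of them higher and 4 lower, with a median of 0.23. Past 0.32 log2 there were 7 higher and 1 lower, which was Fbln1. That is 41.2% and 5.88%, against 3.44% and 5.54% of all measured genes. Their summed signal was 16379 in the control pool and 20098 in the double knockout pool, 1.23-fold higher, and no marker was listed at 0. Much of both sums is the signal of Igf2 and of Ptgds, which was named after its value was seen and read 7117.9 and 8776.4. Aldh1a2, which makes retinoic acid in the meninges, read 244.5 and 392, the growth factor gene Igf2 read 2263.3 and 3414, Islr differed by 0.53, and Fmod by 0.53. Meningeal fibroblasts are known to express fibrillar and type VI collagens and several basement membrane genes. In the same pool 6 of 9 measured fibrillar collagens, 2 of 3 type VI chains and 12 of 19 basement membrane genes were higher. These shares were 66.7%, 66.7% and 63.2%, against 52.9% of all measured genes. Sparc and Serpinh1, which fibroblasts also express, read lower, at -0.23 and -0.39. The part of these cells in the differences of the matrix genes was not tested.

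Endothelial markers were mostly lower, and those of pericytes and smooth muscle went both ways. Endothelial genes had a median of -0.13 over 16 measured of 19, with 5 higher and 11 lower and none past 0.32 log2, and summed signals of 8507.9 in the control pool and 8164.5 in the double knockout pool. The largest differences were 0.31 for the receptor gene Tek and -0.22 each for Sox17, Slco1a4 and Pecam1. Endothelial cells are a known source of basement membrane proteins. Of the chains of vascular membranes, Col4a1 and Col4a2 read lower, at -0.12 and -0.030, and Lama4 and Lama5 higher, at 0.030 and 0.048. The part of endothelial cells was not tested. Pericyte and smooth muscle genes had a median of -0.0086 over 9 measured of 13, and summed signals of 8607.1 and 9516.6, 1.11-fold higher in the double knockout pool. Of the 9 genes 4 were higher and 5 lower, and the bright genes Rgs5 (3812.8 and 4127) and Vtn (1530.2 and 1961.7) weigh most in the sums. Past 0.32 log2 there were 3 higher, or 33.3%, and none lower, against 3.44% and 5.54% of all measured genes. The 3 were Tbx18, Vtn and, named after its value was seen, Des, which reached the floor in the double knockout pool only. The list's largest differences on both arrays were 0.74 for Tbx18, 0.35 for Vtn, -0.24 for Acta2 and 0.11 for Rgs5.

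Differences were seen in other cell types too. The microglia and macrophage list centred at 0.11 over 15 measured of 18, with Mrc1 at 0.68, C1qc at 0.46, P2ry12 at -0.37 and C1qb at 0.37. Astrocyte genes had a median of -0.061 over 11, with Gfap at 0.59, Fgfbp3 at -0.49, Gjb6 at 0.35 and Clu at -0.20. Oligodendrocyte lineage genes had a median of -0.25 over 9 measured of 10, with Mobp at -0.97, Mag at -0.71, Mbp at -0.43 and Cnp at -0.32. Striatal genes had a median of -0.28 over 10 measured of 13, all 10 of them lower, with Drd2 at -0.42, Six3 at -0.41, Penk at -0.39 and Gpr6 at -0.35. The choroid plexus list centred at -0.15 over 4 measured of 10, with Kcnj13 at -0.41, Clic6 at -0.24, Folr1 at -0.068 and Ttr at 0.035.

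**Figure D4:**
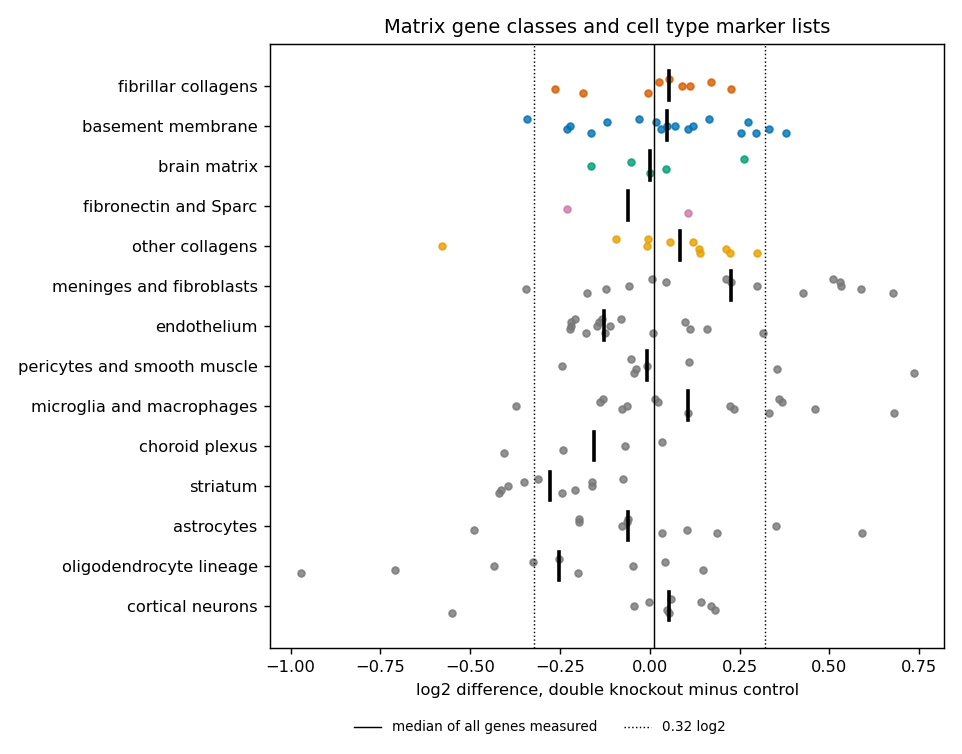
The log2 difference (horizontal, double knockout minus control) of each gene that reached the floor on both arrays, by matrix gene class (coloured) and by cell type marker list (grey). Thick bars are medians over all measured genes of the class or list, the thin line is the median of all genes, 0.011, and the dotted lines mark 0.32 log2. The matrix classes centre between -0.062 and 0.085, while the meninges and fibroblast list centres at 0.23 and the striatum list at -0.28. The marker lists were chosen with earlier results of these data known.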

How the data were processed

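Signal intensity values per probe set, on a linear scale and printed to 1 decimal, were deposited by the authors. The submitters' processing notes name MAS5, with its version, target and any later step not given in the sources used here. The 2% trimmed mean was 500.002 on both arrays. Of 45101 probe sets, 64 were controls, 932 named several genes and 9160 none, and these entered no gene value. Names came from the platform annotation, and the Entrez identifiers of all 64 matrix genes matched RefSeq (GRCm38.p6). Signals were centred on the median log2 difference of probe sets above the floor on both arrays (a shift of 0.0037), set to a floor at the 50th percentile, and log2 transformed. The brightest probe set stood for its gene. Both signals are printed as deposited. The single array per group limits the precision and allowed no test. Python 3.11.15, numpy 2.4.6, pandas 2.3.3, scipy 1.17.1, statsmodels 0.14.6 and matplotlib 3.10.9 were used, and the code was tested on simulated data.

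The matrix genes, the 14 gene lists and the margin of 0.32 log2 were chosen with earlier results of these data known. Beside the matrix genes, up to 4 genes per list with the largest differences on both arrays were named. Alternatives were no centring, quantile normalization, loess centring (span 0.3), the 25th or the 75th percentile as the floor, no floor, adding the floor as a pseudocount, the mean over probe sets, and leaving out probe sets with the suffix _a, _s or _x.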

Additional observations from a re-analysis of the deposited data

How the results depend on the processing

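Of 48 measured matrix genes, 6 changed direction after another scaling, none with a difference beyond 0.035 log2. The choice of probe sets turned further ones. Col3a1 went from 0.23 to -0.024 without suffixed probe sets. With the mean over probe sets Col18a1 went from 0.069 to -0.084 and Ncan from 0.046 to -0.054. Over all genes 400 were past 0.32 log2 higher and 645 lower. These counts were 497 and 517 after quantile normalization, 928 and 1818 with a 25th percentile floor, 94 and 166 with a 75th percentile floor, 177 and 311 with the pseudocount, 299 and 579 with the mean over probe sets, 377 and 607 without suffixed probe sets, and 1552 and 3518 without a floor. The median of all matrix genes ran from 0.029 to 0.078 (75th percentile floor, 20 genes). Quantile normalization moved the medians to 0.11 for fibrillar collagens, 0.10 for basement membrane and 0.14 for other collagens. Loess centring moved basement membrane to 0.097 and other collagens to 0.14. With a 75th percentile floor the median was 0.17 over 2 fibrillar and 0.19 over 3 other collagens. For other collagens it was 0.021 with a 25th percentile floor and -0.0066 without a floor, where dim genes enter. At 0.32 log2, where 2 matrix genes were higher and 2 lower, the counts were 5 and 5 with a 25th percentile floor, 0 and 1 with it at the 75th or with the pseudocount, 4 and 1 with the mean over probe sets, 5 and 2 without suffixed probe sets, and 3 and 7 without a floor. For basement membrane genes, 2 higher and 1 lower, 4 were higher with a 25th percentile floor, 0 with it at the 75th, 0 in either direction with the pseudocount, and 2 lower without a floor. For fibrillar collagens, 0 and 0, 1 was higher with the mean over probe sets or without suffixed ones, and 1 lower with a 25th percentile floor or without one. For other collagens, 0 higher and 1 lower, 1 was higher and 3 lower with a 25th percentile floor, 1 higher without suffixed probe sets, 4 lower without a floor, and 0 lower with a 75th percentile floor or the mean. The cause was not tested, apart from the genes that a floor adds or removes. Among the comparison lists, the medians of other matrix glycoproteins and of choroid plexus turned to 0.025 and 0.012 with a 75th percentile floor, and that of astrocytes to 0.038 without suffixed probe sets. Counts past the margin in those lists also moved. Over the alternatives the higher count ran from 1 to 3 for receptors (2), 0 to 4 for other glycoproteins (3), 1 to 10 for meninges (7) and 1 to 3 for pericytes (3), and the lower count from 0 to 3, 1 to 3, 0 to 2 and 0 to 2. The endothelial list, 0 and 0, had 1 higher gene with quantile normalization, loess centring or a 25th percentile floor. No paired analysis was possible because each group has 1 array. Signals under the floor limit what can be said of 16 matrix genes.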
